A study of Mus musculus with 44 samples.

Results

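CD26-positive cancer-associated fibroblasts (CAFs) of WB1P mammary tumors were compared with CD26-positive normal fibroblasts (NFs) of control mammary glands. CD26 is the cell-surface peptidase encoded by Dpp4 (ENSMUSG00000035000, chromosome 2, 62330073 to 62412231, GRCm38), and it was used here as a sorting marker. The members are the 13 sorted bulk RNA-seq libraries, of 44 in the whole series, that came from a CD26-positive gate in a WB1P or a control mouse: 7 libraries of 4 WB1P mice and 6 libraries of 3 control mice. A gate was counted as CD26-positive whether the cells lacked the GFP lineage label (CD26+) or carried it (+/+, called double-positive below). The libraries of a mouse were summed, so that the mouse was the replicate. Libraries of WB1P-Myc tumors were left out.

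All hosts were female En1-Cre;mTmG mice, a reporter strain in which cells with a history of Engrailed-1 expression turn GFP-positive and all other cells stay tdTomato-positive. The hosts received fragments of mammary tissue in an uncleared mammary gland, so the host epithelium was still present. WB1P donors carried WapCre;Brca1F/F;Trp53F/F, in which a Cre driven by a milk protein promoter deletes Brca1 and Trp53 in mammary epithelium. In the study's transplants of such tissue into mTmG hosts, nearly all CAFs defined by PDGFR-beta were tdTomato-positive and so of the host. No tdTomato gate is described for the libraries used here, so host origin of every sorted cell was not shown. The label of the control group was control transplanted under the title wildtype, and the study describes its donors as WapCre-negative mice carrying Cdh1F/F;PtenF/F. Tumors were collected at end stage and control glands at a matched age, with ages not given in the sources used here. Cells were sorted as negative for EpCAM, CD49f, CD31 and CD45 before the CD26 and GFP gates. Each control carries a pair of numbers (44/46, 49/52 and 82/83), which may stand for pooled animals, and each was counted as 1 mouse. WB1P mouse 12 contributed a double-positive library alone, whereas each of the other mice contributed both gates. No batch was named for these libraries.

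Fibroblasts build and remodel the extracellular matrix, and in mammary stroma they also send growth factor, cytokine and chemokine signals to epithelium, vessels and leukocytes. In human breast, fibroblasts with CD26 have been described around ducts and those without it around lobules. The study describes the mouse gland as without this division, with CD26-positive fibroblasts possible at both ducts and end buds. In tumors, CAFs are commonly described by a matrix-producing, contractile program and by an inflammatory program of secreted cytokines.

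Values below are CPM, the counts per 1000000 of each mouse's summed counts on effective library sizes. They are given for controls 44/46, 49/52 and 82/83 and for WB1P mice 12, 14, 35 and 93 in that order. A log2 fold change is WB1P minus control from an edgeR quasi-likelihood fit, SE is its standard error, and p-values were adjusted over all 14813 genes tested. A gene is said to have risen or fallen where the adjusted p was under 0.05, and to be differentially expressed where the log2 fold change was also beyond 2 in either direction. The libraries held 5790599 to 15240328 counts and the mice 5790599 to 29498005, the lowest being WB1P mouse 12. The 10 most abundant genes took 8.54% to 12.8% of a library's counts. The median log2 fold change of all genes tested was 0.02.

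The sorted cells carried the transcripts of mesenchymal cells in both groups. Pdgfra, a receptor of most fibroblasts, stood at 954, 979.6 and 846 CPM in NFs and 361, 1022, 834 and 665 CPM in CAFs. Dcn, a matrix proteoglycan, was at 3386, 3857 and 3385 CPM in NFs and 3021, 2755, 3096 and 3262 CPM in CAFs. Dpp4 itself was at 486, 764 and 249.97 CPM in NFs and 227, 384, 512 and 483 CPM in CAFs, and its change was not past the threshold (log2 fold change -0.32, SE 0.39, adjusted p = 0.586). En1, the gene behind the lineage label, was low and non-overlapping, with 12.0, 13.1 and 10.2 CPM in NFs and 26.1, 24.7, 20.6 and 64.3 CPM in CAFs (log2 fold change 1.53, SE 0.40, adjusted p = 0.0298). The call did not hold without any one of the 3 controls or in the double-positive libraries alone (adjusted p up to 0.102). In single libraries of controls, En1 was at 7.35 to 8.47 CPM in the CD26+ gate and 13.9 to 17.1 CPM in the double-positive gate. In those of tumors it was at 14.9 to 45.0 CPM and 24.7 to 83.7 CPM, and mouse 12 had the double-positive gate alone. Cd34 and Pi16 mark adventitial fibroblasts. Cd34 was at 747 to 1447 CPM in NFs and 1185 to 1397 CPM in CAFs. Pi16 was at 859 to 2443 CPM in NFs and 1635 to 2676 CPM in CAFs.

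Markers of some other cells moved with the groups, while the epithelial, Schwann cell and erythroid sums overlapped. Of 18 immune markers, 14 were tested and 5 rose (Cd3e, Csf1r, C1qa, C1qb and Tyrobp), and the summed level of the 18 was 22.2 to 32.9 CPM in NFs and 74.7 to 150 CPM in CAFs. Cd3e, a T cell receptor subunit, was the highest of the 18 in every tumor, and the sum without it was 11.6 to 17.5 CPM in NFs and 23.9 to 42.9 CPM in CAFs. Ptprc, the pan-leukocyte marker CD45, was at 0.538 to 1.2 CPM in NFs and 0.762 to 2.04 CPM in CAFs, with overlapping groups. Of 23 epithelial markers, 22 were tested, 5 rose (Epcam, Krt7, Krt8, Krt18 and Cldn4) and 1 fell (Krt19), with a sum of 61.0 to 134 CPM in NFs and 32.5 to 251 CPM in CAFs. The groups overlapped for Epcam, Krt8 and Krt18, and the call of Epcam was lost in 9 of 14 alternatives, among them leaving out any one of the controls or mouse 12, 14 or 35 (adjusted p up to 0.233). Mouse 93 had the lowest epithelial sum of all 7 mice. Endothelial markers fell in 9 of 12 tested (76.5 to 96.5 CPM in NFs and 35.9 to 55.8 CPM in CAFs). Pericyte markers rose in 3 and fell in 2 of 10 tested, with sums of 189.7 to 209 CPM in NFs and 323 to 517 CPM in CAFs. Skeletal muscle markers summed to 16.6 to 68.7 CPM in NFs and 4.60 to 12.1 CPM in CAFs, and adipocyte markers to 6.33 to 8.57 and 1.04 to 1.76 CPM. Schwann cell markers summed to 23.9 to 61.3 and 12.2 to 30.5 CPM, and erythroid markers to 0.395 to 1.16 and 0.418 to 3.87 CPM. Apart from 1 Schwann cell and 2 skeletal muscle markers, each marker had a count in at least 1 mouse. The part of these other cells in the results was not tested. In sorted bulk samples fewer cells of a type and less RNA per cell cannot be told apart.

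The CD26-positive transcriptomes of tumors and controls differed in both directions. In WB1P CAFs, 1488 genes rose (10.0% of those tested) and 1346 fell (9.09%), and 594 were differentially expressed with a higher level (4.01%) and 403 with a lower level (2.72%). All 4 WB1P mice lay above all 3 controls for 2879 genes (19.4%) and below them for 2512 (17.0%). The first principal component of the 7 mice held 58.8% of the variance. The number of calls depended most on control 44/46, without which 555 genes rose and 451 fell, while the other single mice left out gave 906 to 1803 and 753 to 1725. With mice 14 and 35, which had the highest epithelial sums, both left out, 652 genes rose and 551 fell. A gene list with shares near the 10.0% and 9.09% of all genes does not stand apart by its counts.

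The largest rises included matrix and inflammatory genes and the neural adhesion gene Chl1. By a rule that took the 12 largest changes in each direction among differentially expressed genes with non-overlapping groups and a sufficient level, the rising genes were Gm6093, Tnn, Kcnj15, Saa3, Nos2, Chl1, Mmp13, Galnt6, Mmp9, Ltbp2, Tnfsf8 and Reg1. Tnn, or tenascin-W, a matricellular protein of developing bone and of tumor stroma (ENSMUSG00000026725, chromosome 1, 160085029 to 160153580), had 3 counts in all NFs and 30.6 to 79.8 CPM in CAFs, a ratio of 1450 with a 95% counting interval of 496 to 7033. Gm6093, a long noncoding RNA, had no count in any control and 8.8, 7.84, 9.75 and 20.2 CPM in CAFs, at least 340-fold higher against a floor of 3 counts over the control group. Such intervals and floors cover counting error only.

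Chl1, a neural cell adhesion molecule (ENSMUSG00000030077, chromosome 6, 103510586 to 103750211), was at 2.67, 2.15 and 1.72 CPM in NFs and 297, 387, 533 and 604 CPM in CAFs (log2 fold change 7.70, SE 0.39, adjusted p = 8.22e-05). Every WB1P mouse was far above every control for this gene. Ltbp2, a microfibril protein related to the binding proteins of latent TGF-beta, was at 2.48, 2.12 and 4.42 CPM in NFs and 570.4, 460.4, 314 and 294 CPM in CAFs (log2 fold change 7.09, SE 0.44, adjusted p = 8.22e-05). Saa3, an acute phase apolipoprotein, was at 0.429, 0.287 and 0.599 CPM in NFs and 24.1, 212, 167 and 91.5 CPM in CAFs (log2 fold change 8.13, SE 0.86, adjusted p = 0.000864), with the lowest CAF value in mouse 12. Nos2, the inducible nitric oxide synthase, was at 0.0306, 0.143 and 0.15 CPM in NFs and 34.0, 9.79, 24.1 and 33.9 CPM in CAFs (log2 7.85, adjusted p = 0.000334). The secreted collagenase Mmp13 was at 0.0717 to 0.898 CPM in NFs and 21.7 to 180.3 CPM in CAFs, with mice 12 and 14 low and mice 35 and 93 high. The gelatinase Mmp9 was at 0.251 to 1.05 CPM in NFs and 86.4 to 150.1 CPM in CAFs. Kcnj15, a potassium channel, was at 0 to 0.123 CPM in NFs and 8.8 to 29.9 CPM in CAFs. The rule that chose these genes required groups that do not overlap. The glycosyltransferase Galnt6 was at 0.0374 to 0.123 CPM in NFs and 9.51 to 25.6 CPM in CAFs. Tnfsf8, the ligand of CD30, stood at 0.187 to 0.337 CPM in NFs and 17.1 to 51.1 CPM in CAFs. The secreted lectin Reg1 was at 0.0359 to 0.245 CPM in NFs and 5.11 to 44.4 CPM in CAFs.

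The 12 largest falls were Myh4, Inmt, Lamc3, Mrgprg, Col13a1, Nos1, Sema3g, Nxph3, Unc5a, Angpt2, Map2 and Ntrk3. Inmt, a methyltransferase of indole amines, was at 39.9, 34.1 and 23.4 CPM in NFs and 0, 0.244, 0.0741 and 0.0477 CPM in CAFs (log2 fold change -8.04, SE 0.48, adjusted p = 8.22e-05), so that all 4 tumors were near 0. Lamc3, a laminin chain, was at 189.9, 76.6 and 272 CPM in NFs and 0.88, 0.279, 1.89 and 0.429 CPM in CAFs (log2 fold change -7.67, SE 0.71, adjusted p = 0.00045). Ntrk3, a neurotrophin receptor, was at 29.9, 37.4 and 13.025 CPM in NFs and 0.528, 0.732, 0.593 and 1.14 CPM in CAFs (log2 -5.10, adjusted p = 0.00032). For most of the other falling genes control 49/52 had the lowest control level: Col13a1, a transmembrane collagen, was at 41.0, 5.16 and 85.6 CPM in NFs and 0, 0.139, 1.41 and 0.143 CPM in CAFs. Map2, a microtubule protein, was at 80.6, 6.96 and 158 CPM in NFs and 0.704, 2.61, 3.15 and 0.858 CPM in CAFs. Sema3g, Unc5a, Nxph3, Nos1 and Angpt2, which act in axon guidance, synaptic adhesion, nitric oxide signaling and vessel remodeling, had the same order of controls, from 2.51 to 53.8 CPM for Nxph3 up to 17.0 to 118 CPM for Sema3g. Mrgprg, a G protein-coupled receptor, was at 24.0 to 56.3 CPM in NFs and 0 to 0.556 CPM in CAFs. Myh4, a myosin of fast skeletal muscle, was at 38.1, 0.574 and 58.4 CPM in NFs and had 3 counts in all CAFs, a ratio of 887 with a counting interval of 303 to 4303. Myh4 is one of the skeletal muscle markers whose sum was higher in NFs, and without it their sum was 10.3 to 16.0 CPM in NFs and 4.56 to 11.8 CPM in CAFs. The part of muscle cells in its value was not tested.

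**Figure D1:**
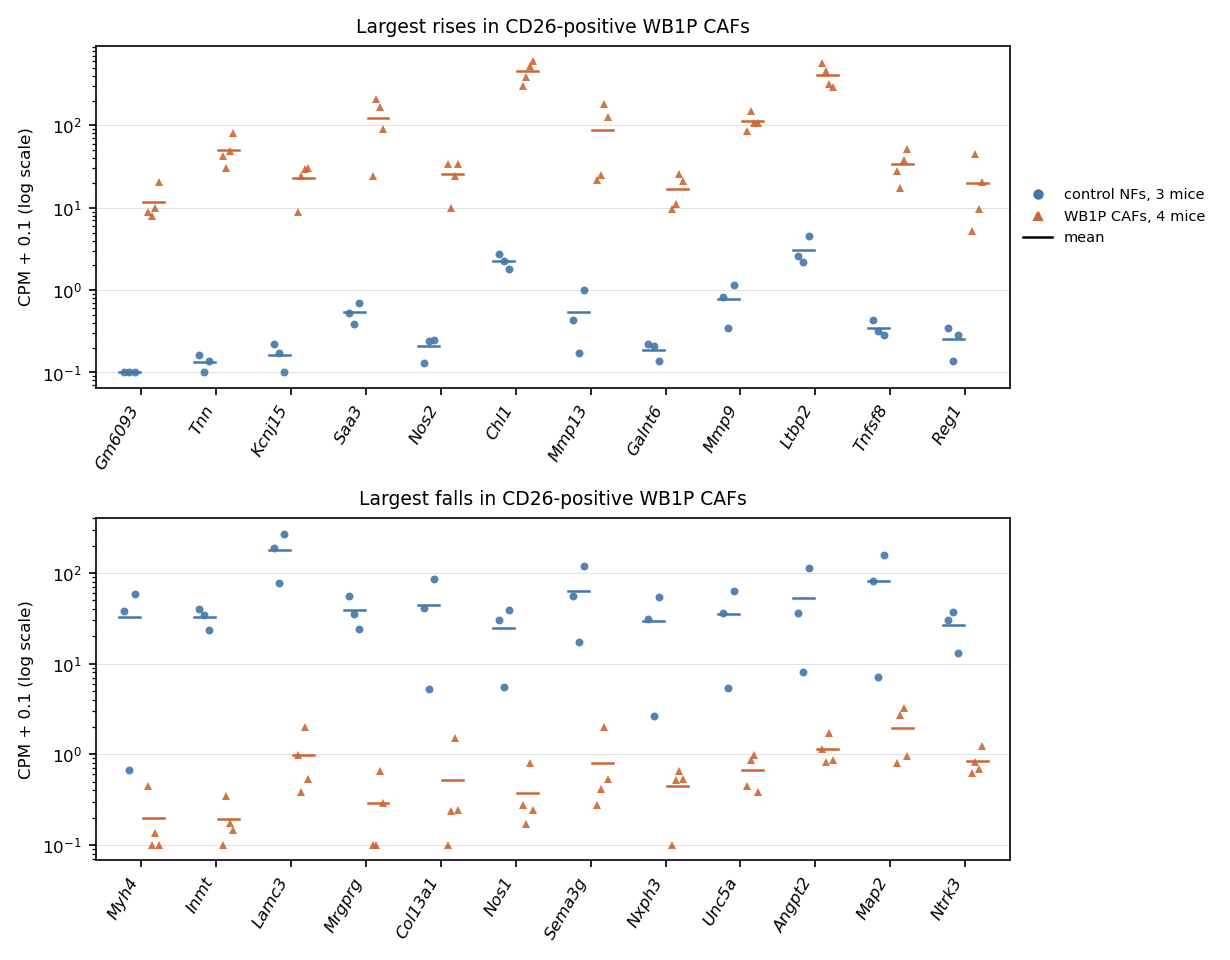
Level of the 12 genes with the largest rise and the 12 with the largest fall, in CPM on a log axis, with 1 point for each of the 3 control and 4 WB1P mice. The rule that chose these genes required all WB1P points to lie on one side of all control points. Chl1 runs from 1.72 to 2.67 CPM in controls to 297 to 604 CPM in WB1P mice.

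Many of the enzymes that modify and crosslink collagen rose in CAFs. Of 26 such genes, 14 rose and none fell (median log2 fold change 0.93, against 0.02 for all genes tested). They were P4ha1, P4ha2, P4ha3, Plod1, Plod2, Plod3, Lox, Loxl3, Loxl4, Pcolce, Bmp1, P3h4, Colgalt1 and Fkbp10. Lox, the lysyl oxidase that starts collagen and elastin crosslinks, was at 459.7, 231 and 452 CPM in NFs and 4979, 3758, 3062 and 4437 CPM in CAFs (log2 fold change 3.41, SE 0.35, adjusted p = 0.000727). P4ha3, a prolyl hydroxylase subunit, was at 24.9, 13.1 and 24.4 CPM in NFs and 289.8, 308, 261 and 274 CPM in CAFs (log2 fold change 3.77, SE 0.28, adjusted p = 0.000167). No tumor overlapped a control in either gene. Plod2, a lysyl hydroxylase of collagen telopeptides, was at 90.5 to 182 CPM in NFs and 346 to 560.4 CPM in CAFs (log2 1.70, adjusted p = 0.00572). P4ha2 was at 81.8 to 114 CPM in NFs and 248 to 375 CPM in CAFs. Loxl3, another lysyl oxidase, was at 97.7 to 122 CPM in NFs and 298 to 458 CPM in CAFs. Bmp1, the procollagen C-proteinase, rose less (log2 fold change 0.84, SE 0.22, adjusted p = 0.0281). The call did not hold without any one of the controls or without mouse 14 or 35 (adjusted p 0.0522 to 0.13). The count of 14 became 6 without control 44/46, 9 without control 49/52 and 8 with mice 14 and 35 both left out.

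The main fibrillar collagens themselves did not pass the threshold. Col1a1 was at 11030.0, 5976 and 13617 CPM in NFs and 20905, 21118, 20474 and 21241 CPM in CAFs (log2 fold change 1.04, SE 0.33, adjusted p = 0.0591). Col3a1 was at 19060.0, 11567 and 22246 CPM in NFs and 27567, 25152, 27273 and 30421 CPM in CAFs (log2 fold change 0.65, SE 0.32, adjusted p = 0.169). Both were above every control in every tumor, and control 49/52 was the lowest control for both. Col24a1, a minor fibrillar collagen, was the 1 of 11 that rose, with 0.251 to 1.05 CPM in NFs and 5.99 to 34.0 CPM in CAFs. That share of 9.09% is near the 10.0% of all genes tested. Among 16 other interstitial collagens, 6 rose (Col8a1, Col8a2, Col12a1, Col14a1, Col16a1 and Col28a1) and 3 fell (Col6a6, Col13a1 and Col26a1). Those shares are 37.5% and 18.75%, against 10.0% and 9.09% of all genes tested. The count that rose was 3 without control 44/46 or with mice 14 and 35 both left out. Col8a1, a short-chain collagen of vessel walls and remodeling tissue (ENSMUSG00000068196, chromosome 16, 57624258 to 57754737), was at 7.54, 9.29 and 16.0 CPM in NFs and 1050.3, 1085, 1023 and 1338 CPM in CAFs (log2 fold change 6.68, SE 0.37, adjusted p = 8.22e-05), and its partner Col8a2 was at 1.4 to 5.46 CPM in NFs and 108 to 145 CPM in CAFs. Col12a1, which coats collagen fibrils, was at 392, 163 and 732 CPM in NFs and 2499, 3051, 4218 and 4654 CPM in CAFs (log2 fold change 3.07, SE 0.52, adjusted p = 0.00558).

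Basement membrane genes went the other way. Of 23, 9 fell (Col4a1, Col4a2, Col4a3, Col15a1, Col18a1, Lama2, Lamb1, Lamc3 and Nid2) and 1 rose (Lama1), with a median log2 fold change of -0.45. Col4a1, the chief chain of the collagen IV network (ENSMUSG00000031502, chromosome 8, 11198423 to 11312826), was at 4853, 3031 and 6786 CPM in NFs and 936, 1516, 1468 and 1342 CPM in CAFs (log2 fold change -1.89, SE 0.32, adjusted p = 0.00547). Col4a2, its head-to-head neighbor, was at 2978, 1685 and 4385 CPM in NFs and 764, 1031, 995 and 863 CPM in CAFs (log2 -1.72, adjusted p = 0.00833). Lama2, a chain of the laminin that surrounds muscle and nerve, was at 2005, 1706 and 2527 CPM in NFs and 333, 499, 550.1 and 763 CPM in CAFs (log2 fold change -1.95, SE 0.30, adjusted p = 0.00354). The 3 genes had non-overlapping groups, with control 49/52 lowest of the controls in each. Col18a1, the source of endostatin, was at 395 to 1635 CPM in NFs and 147 to 224 CPM in CAFs (log2 -2.31, adjusted p = 0.00737, and 0.0583 with mice 14 and 35 both left out). Lama1 was low throughout at 0.359 to 2.6 CPM in NFs and 2.99 to 11.0 CPM in CAFs. The call held in 4 of 14 alternatives, and leaving out any single mouse ended it (adjusted p 0.0537 to 0.102). In the CD26+ libraries alone, 5 of the 9 fell. The endothelial marker sum was also lower in CAFs than in NFs, and its part in these falls was not tested.

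Matricellular proteins, which sit in the matrix and signal to cells, rose in 11 of 24 tested, and none fell (median 1.04): Tnn, Thbs3, Thbs4, Comp, Sparc, Spp1, Ccn2, Ccn3, Ccn5, Cthrc1 and Smoc1. Thbs4, a thrombospondin of tendon and muscle, was at 5.82, 20.4 and 16.2 CPM in NFs and 1186, 801, 446 and 1599 CPM in CAFs (log2 fold change 6.16, SE 0.65, adjusted p = 0.000859). Spp1, or osteopontin, was at 2.6, 4.48 and 2.43 CPM in NFs and 265, 168, 389 and 94.5 CPM in CAFs (log2 fold change 6.17, SE 0.58, adjusted p = 0.000476). Cthrc1, a secreted protein of injured tissue and a common CAF marker, was at 39.7, 9.4 and 46.2 CPM in NFs and 694, 452, 424 and 522 CPM in CAFs (log2 4.04, adjusted p = 0.00211). The tumors differed in which of them was highest, with Thbs4 peaking in mouse 93 and Spp1 lowest there. Ccn2, or CTGF, was at 16.4 to 100.5 CPM in NFs and 436 to 759 CPM in CAFs. Ccn3, or NOV, was at 46.6 to 101 CPM in NFs and 617 to 988 CPM in CAFs.

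Small leucine-rich proteoglycans, which bind collagen fibrils, rose in 6 of 12 (Bgn, Fmod, Prelp, Aspn, Podn and Chad) and fell in 1 (Epyc). Bgn, or biglycan, was at 1122, 621 and 1567 CPM in NFs and 7502, 4940.2, 5267 and 6228 CPM in CAFs (log2 fold change 2.44, SE 0.36, adjusted p = 0.00326). Fmod was at 1.33 to 8 CPM in NFs and 108 to 206 CPM in CAFs (log2 4.72, adjusted p = 0.00172). Lum, a close relative of Dcn, was at 1255 to 1936 CPM in NFs and 929 to 1176 CPM in CAFs, lower in every tumor but not past the threshold (log2 -0.65, adjusted p = 0.0664). Epyc was at 5.99 to 14.7 CPM in NFs and 0 to 2.11 CPM in CAFs. Chad had 1 count in the controls and 216 in the tumors, a ratio of 229 with a counting interval of 40.6 to 9080.4. Elastic fiber genes rose in 7 of 19 and none fell (median 0.65): Eln, Fbln1, Fbln2, Efemp2, Mfap4, Mfap5 and Ltbp2, of which 4 rose without control 44/46. Eln, elastin itself, was at 864 to 1178 CPM in NFs and 2105 to 3364 CPM in CAFs (log2 1.38, adjusted p = 0.00865), with adjusted p = 0.0504 without control 44/46. Fbln2 was at 1234 to 1381 CPM in NFs and 3632 to 4410.5 CPM in CAFs. Mfap4 was at 29.6 to 144 CPM in NFs and 547 to 805 CPM in CAFs.

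**Figure D2:**
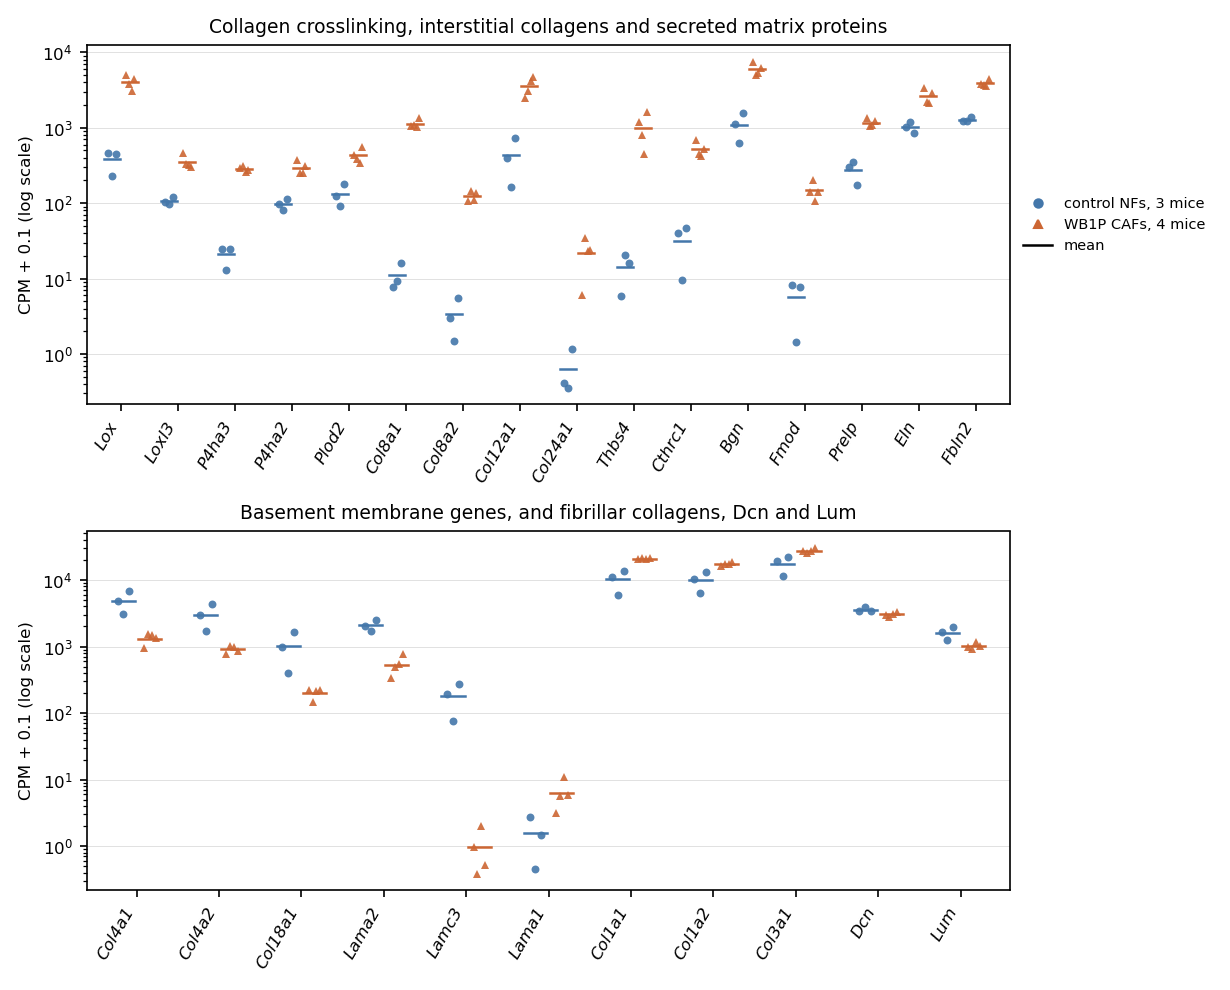
Level of matrix genes in each mouse, in CPM on a log axis, with 1 point for each of the 3 control and 4 WB1P mice. Lox lies at 231 to 459.7 CPM in controls and 3062 to 4979 CPM in WB1P mice, and Col4a1 lies at 3031 to 6786 CPM and 936 to 1516 CPM.

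Among the enzymes that cut the matrix and the proteins that hold them in check, genes of both kinds rose. Of 33 matrix proteases, 6 rose (Mmp9, Mmp10, Mmp13, Mmp23, Adamts6 and Adamts8) and 3 fell (Mmp28, Adamts10 and Adamts12), with a median of 0.18. These are 18.2% and 9.09%, the latter the same share as among all genes tested. Mmp10, a stromelysin, was at 0.0359 to 0.187 CPM in NFs and 2.82 to 19.4 CPM in CAFs (log2 6.63, adjusted p = 0.00206). Of 16 protease inhibitors, 8 rose (among them Timp1, Serpine2, Serpina3n, Serpina3g, Serpinb2, Slpi and A2m) and 2 fell (Pi15 and Reck), with a median of 1.38. In all, 4 rose without control 44/46. Serpina3n, an acute phase serpin, was at 161, 196 and 155 CPM in NFs and 1914, 1584, 1693 and 1572 CPM in CAFs (log2 fold change 3.31, SE 0.22, adjusted p = 0.000109), with little spread among the tumors. Serpinb2, an inhibitor of plasminogen activators, was at 3.37, 4.05 and 7.86 CPM in NFs and 207, 239.8, 231 and 605 CPM in CAFs (log2 5.98, adjusted p = 0.000514), and mouse 93 had the highest value. Reck, a membrane-anchored inhibitor of metalloproteinases, was at 194 to 233 CPM in NFs and 65.0 to 107 CPM in CAFs. Of 12 hyaluronan genes, 2 rose (16.7%, against 10.0% of all genes tested). One was Cemip, which degrades hyaluronan, at 0.215 to 2.88 CPM in NFs and 71.3 to 155 CPM in CAFs. The other was the hyaluronan receptor Cd44, at 202 to 458 CPM in NFs and 621 to 2776 CPM in CAFs. The call of Cd44 ended without control 44/46 (adjusted p = 0.109), without control 49/52 (adjusted p = 0.0781) and without mouse 12 (adjusted p = 0.0521).

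Chemokine and cytokine genes were among those that rose. Of 34 chemokines listed, 24 were tested, 13 rose and none fell (median 1.66): Ccl2, Ccl7, Ccl8, Ccl9, Ccl20, Cxcl1, Cxcl2, Cxcl3, Cxcl5, Cxcl9, Cxcl10, Cxcl14 and Cxcl16. The count was 7 without control 44/46. The neutrophil attractant Cxcl5 was at 2.05, 2.94 and 11.9 CPM in NFs and 67.1, 98.0, 80.7 and 315 CPM in CAFs (log2 fold change 4.64, SE 0.84, adjusted p = 0.00771). Ccl7, a monocyte attractant, was at 108, 178 and 205 CPM in NFs and 1283, 881, 874 and 1103 CPM in CAFs (log2 fold change 2.66, SE 0.29, adjusted p = 0.00095). Its neighbor Ccl2 was at 401 to 644 CPM in NFs and 1207 to 2296 CPM in CAFs (log2 1.70, adjusted p = 0.00974, and 0.056 without control 44/46). The tumors fell into an order that differed by gene: Cxcl1, Cxcl2 and Cxcl3, all ligands of the receptor Cxcr2, were highest in mice 12 and 93. Cxcl3 was at 1.16, 1.79 and 6.89 CPM in NFs and 138, 22.9, 29.1 and 406 CPM in CAFs (log2 5.51, adjusted p = 0.0174). Cxcl2 was at 37.2, 41.3 and 75.2 CPM in NFs and 535, 163, 154 and 1064 CPM in CAFs (log2 3.23, adjusted p = 0.0178). The calls of Cxcl1, Cxcl2 and Cxcl3 were each lost without control 44/46 (adjusted p 0.0712 to 0.102) and without control 49/52 (adjusted p 0.0531 to 0.056). Ccl20 had no count in any control and was at least 62.9-fold higher in CAFs against the floor of 3 counts over the group.

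Of 45 cytokine and acute phase genes tested, 21 rose and none fell (median 1.34). The count was 13 without control 44/46. They included the colony-stimulating factors Csf2 and Csf3, the interleukin-1 family members Il1a, Il1b, Il1rn and Il33, the interleukin-6 family ligands Il6, Lif and Clcf1, and the acute phase genes Saa1, Saa3, Lcn2 and Hp. Csf2, or GM-CSF, was at 3.77, 5.85 and 7.37 CPM in NFs and 141, 39.7, 78.6 and 441 CPM in CAFs (log2 fold change 4.95, SE 0.86, adjusted p = 0.00629). Lif was at 29.0, 34.4 and 45.4 CPM in NFs and 227, 382, 383 and 798 CPM in CAFs (log2 fold change 3.63, SE 0.45, adjusted p = 0.00146). Csf3, or G-CSF, was at 0.766, 0.932 and 1.42 CPM in NFs and 16.9, 24.6, 19.3 and 86.3 CPM in CAFs (log2 5.15, adjusted p = 0.00235). Mouse 93 had the highest level of all 3, and every tumor exceeded every control. Hp, or haptoglobin, was at 0.613 to 0.717 CPM in NFs and 10.2 to 50.3 CPM in CAFs, highest in mice 14 and 35 instead. Il33, an alarmin of stromal nuclei, was at 124, 194 and 52.8 CPM in NFs and 403, 384, 477 and 1255 CPM in CAFs (log2 2.35, adjusted p = 0.0231). It lost its call without control 44/46 (adjusted p = 0.0857). Il6 was at 174, 259.8 and 258 CPM in NFs and 873, 337, 371 and 713 CPM in CAFs (log2 fold change 1.31, SE 0.37, adjusted p = 0.0391). Its call was lost in 8 of 14 alternatives, among them the fits without mouse 12 or 93 or any one of the controls (adjusted p 0.0592 to 0.152). Without Cd3e, the immune marker sum was 11.6 to 17.5 CPM in NFs and 23.9 to 42.9 CPM in CAFs, with Ptprc at 0.762 to 2.04 CPM across the tumors, and the part of immune cells in these values was not tested.

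Complement genes rose in 8 of 22 (36.4%, against 10.0% of all genes tested) and fell in 3 (13.6%, against 9.09%). The rising genes were C2, C4a, C4b, Cfb, Cfi, Masp1, Cd59a and C3ar1, and the falling genes Hc, C7 and Cfp. C4b, a component of the classical and lectin pathways, was at 419, 1054 and 336 CPM in NFs and 2623, 3196, 2777 and 4149 CPM in CAFs (log2 fold change 2.40, SE 0.43, adjusted p = 0.00749). C4a and C4b are near-identical copies whose reads may have been split between them. Cfb, of the alternative pathway, was at 0.711 to 1.47 CPM in NFs and 11.3 to 18.7 CPM in CAFs (log2 3.69, adjusted p = 0.00045). Hc, the gene of complement C5, was at 75.0, 26.9 and 58.3 CPM in NFs and 1.41, 0.662, 4.15 and 1.14 CPM in CAFs (log2 fold change -4.81, SE 0.62, adjusted p = 0.00181). C7, another component of the terminal attack complex, was at 15.8 to 40.5 CPM in NFs and 0.704 to 7.01 CPM in CAFs (log2 -2.75, adjusted p = 0.0116). C5 and C7 both belong to the terminal pathway, and C2, C4 and factor B to the early steps. The calls did not all divide this way, since Cfp, of the alternative pathway, fell and Cd59a, a regulator of the terminal complex, rose. The call of C7 was lost with mice 14 and 35 both left out (adjusted p = 0.0612).

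Interferon-stimulated genes rose in 20 of 42 and none fell (median 1.09): Ifit1, Ifit3b, Isg15, Irf7, Rsad2, Mx1, Oas1a, Oas1g, Oas2, Oas3, Oasl1, Oasl2, Bst2, Xaf1, Ifi44, Ifi47, Zbp1, Gbp3, Igtp and Dhx58. The promoters of 3 of them are shown because they carry the letters GAAA, any pair of bases and GAAA again. This is the core of the interferon-stimulated response element, which is bound by interferon regulatory factors. The sequences are from RefSeq on GRCm38.p6, run 5′ to 3′ on the strand of the gene and lie within 250 bases before its annotated start, with matches on either strand in capitals.
Isg15 (chromosome 4, 156200835 to 156200936, minus strand): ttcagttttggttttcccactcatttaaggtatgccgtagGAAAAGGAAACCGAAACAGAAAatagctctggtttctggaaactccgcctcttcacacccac
Rsad2 (chromosome 12, 26456523 to 26456612, minus strand): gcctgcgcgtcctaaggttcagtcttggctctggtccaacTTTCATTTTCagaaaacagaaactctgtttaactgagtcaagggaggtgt
Ifit1 (chromosome 19, 34640745 to 34640853, plus strand): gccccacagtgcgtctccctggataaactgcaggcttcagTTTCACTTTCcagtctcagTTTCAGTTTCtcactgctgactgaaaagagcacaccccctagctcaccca

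On either strand and with overlapping matches counted, 10 of the 16 genes with a promoter among the 20 that rose carried these letters (62.5%). They were carried by 7 of 16 among the 22 that did not rise (43.8%) and 936 of 27025 genes with a promoter (3.46%). The list holds genes named for their response to interferon, so these shares do not test what raised them. A match is a description of the letters, not a site that was shown to be bound. Isg15, an ubiquitin-like antiviral protein whose matches overlap in a run, was at 5.58, 10.6 and 6.77 CPM in NFs and 48.8, 30.6, 32.0 and 49.9 CPM in CAFs (log2 fold change 2.39, SE 0.31, adjusted p = 0.00173). Rsad2, or viperin, was at 1.69, 1.26 and 0.749 CPM in NFs and 5.28, 5.33, 5.04 and 15.2 CPM in CAFs (log2 2.65, adjusted p = 0.0103). Ifit1, which binds viral RNA, was at 5.42, 13.019 and 5.91 CPM in NFs and 38.0, 15.6, 35.6 and 36.6 CPM in CAFs (log2 1.95, adjusted p = 0.0141). All 3 were above every control in every tumor, with mouse 93 far above the others for Rsad2 and mouse 14 far below them for Ifit1. Irf7, the interferon regulatory factor that amplifies this response, was at 11.8, 27.9 and 12.9 CPM in NFs and 73.4, 70.6, 71.0 and 145 CPM in CAFs (log2 2.36, adjusted p = 0.00593). Oas2, a sensor of double-stranded RNA, was at 2.17 to 5.2 CPM in NFs and 19.2 to 53.1 CPM in CAFs (log2 3.21, adjusted p = 0.00255). Ifit1 lost its call without control 44/46 (adjusted p = 0.0646), and Ifit1, Irf7 and Rsad2 lost theirs when all 6 groups of the series shared a fit (adjusted p 0.0671 to 0.172). Of the 42, 8 rose in that fit, and 10 without control 44/46. Among 24 antigen presentation genes, 2 rose (H2-Ab1 and Cd74), which is 8.33% against 10.0% of all genes tested.

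Genes of glycolysis and the hypoxia response rose in 23 of 34, with 1 fall (median 1.59). The count was 15 without control 44/46. Glycolysis splits glucose to lactate, and when oxygen is short its genes are induced by HIF1, which binds the letters ACGTG. The promoters of Egln3, Pgk1 and Ldha, from RefSeq on GRCm38.p6 and printed as above within 250 bases before the start, are shown with this motif in capitals on either strand (CACGTG holds a match on both strands).
Egln3 (chromosome 12, 54204059 to 54204124, minus strand): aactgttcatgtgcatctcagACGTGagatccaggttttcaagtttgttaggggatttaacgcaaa
Pgk1 (chromosome X, 106186910 to 106187013, plus strand): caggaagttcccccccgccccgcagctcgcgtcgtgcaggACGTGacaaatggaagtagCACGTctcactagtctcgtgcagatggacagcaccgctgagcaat
Ldha (chromosome 7, 46845619 to 46845803, plus strand): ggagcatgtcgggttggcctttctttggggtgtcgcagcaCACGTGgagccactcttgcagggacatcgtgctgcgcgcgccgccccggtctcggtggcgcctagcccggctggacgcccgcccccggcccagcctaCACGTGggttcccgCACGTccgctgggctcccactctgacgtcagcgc

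ACGTG was carried by 14 of the 22 genes with a promoter among those that rose (63.6%) and 2 of 9 among the 11 others (22.2%). Of all 27025 genes with a promoter, 4998 carried it (18.5%). The list includes genes named for their response to hypoxia, so these shares do not test a part of HIF1 in the rises. Pgk1, phosphoglycerate kinase, was at 43.4, 37.4 and 60.9 CPM in NFs and 380.4, 218, 186 and 187 CPM in CAFs (log2 fold change 2.36, SE 0.32, adjusted p = 0.00232). Ldha, which makes lactate, was at 236, 205 and 361 CPM in NFs and 1022, 629, 553 and 553 CPM in CAFs (log2 fold change 1.37, SE 0.31, adjusted p = 0.0174). Its call was lost without control 44/46 (adjusted p = 0.088), without control 49/52 (adjusted p = 0.0551) and with mice 14 and 35 both left out (adjusted p = 0.0508). Egln3, a prolyl hydroxylase that marks HIF for degradation, was at 0.919, 0.61 and 0.936 CPM in NFs and 15.1, 10.3, 9.56 and 8.24 CPM in CAFs (log2 fold change 3.70, SE 0.34, adjusted p = 0.000437). Mouse 12, the mouse with a double-positive library alone and the lowest depth, had the highest level of all 3. Slc16a3, the lactate exporter MCT4, was at 4.96, 3.62 and 12.2 CPM in NFs and 236, 146, 125 and 132 CPM in CAFs (log2 fold change 4.53, SE 0.49, adjusted p = 0.000925), again highest in mouse 12 and above every control in every tumor.

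Along the pathway, the glucose transporter Slc2a1 was at 50.3 to 79.5 CPM in NFs and 192 to 347 CPM in CAFs (log2 2.04, adjusted p = 0.00232). The isomerase Tpi1 was at 60.1 to 69.1 CPM in NFs and 202 to 392 CPM in CAFs. Gapdh, the next enzyme, was at 80.3 to 104 CPM in NFs and 264 to 586 CPM in CAFs. All 3 were higher in every tumor than in any control. The enolase Eno1 was at 74.1 to 89.6 CPM in NFs and 387 to 824 CPM in CAFs (log2 2.71, adjusted p = 0.00106). The pyruvate kinase Pkm was at 150.2 to 184 CPM in NFs and 617 to 1148 CPM in CAFs (log2 2.29, adjusted p = 0.00123). Aldoa, an aldolase, rose less (log2 fold change 1.10, SE 0.29, adjusted p = 0.0298), with its call lost without control 44/46, without control 49/52 and without mouse 14 (adjusted p 0.0536 to 0.126). Bnip3, a mitophagy receptor induced by hypoxia, was at 6.74 to 14.0 CPM in NFs and 61.4 to 119 CPM in CAFs (log2 2.85, adjusted p = 0.00134). Hif1a, the oxygen-regulated subunit, was at 165, 139.7 and 171 CPM in NFs and 294, 319.7, 499 and 806 CPM in CAFs (log2 fold change 1.60, SE 0.36, adjusted p = 0.0175). In contrast to the enzymes it was highest in mouse 93, and it lost its call without control 44/46 (adjusted p = 0.0711) and without control 49/52 (adjusted p = 0.0558). Hif3a, a relative that can oppose HIF1, was the 1 gene that fell, at 0.561 to 1.47 CPM in NFs and 0 to 0.286 CPM in CAFs. That call ended in 6 of 13 alternatives, without mouse 14, mouse 35, control 44/46 or control 49/52 among them (adjusted p 0.057 to 0.0832). Exonic bases of Gapdh and Tpi1 overlap a gene on the opposite strand and those of Pkm a gene on the same strand. How the counter treated overlaps and strand is not given in the sources used here. Exonic overlap with another tested gene, and so the same uncertainty, also holds for Lox, Loxl3, Plod2, Col4a1, Col4a2, Ccn2, Mfap4, Prg4, Irf7, Serpinb2, Kif20a, Ccnd2, Fgf10, Pdgfa, Smpd3 and Il16.

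**Figure D3:**
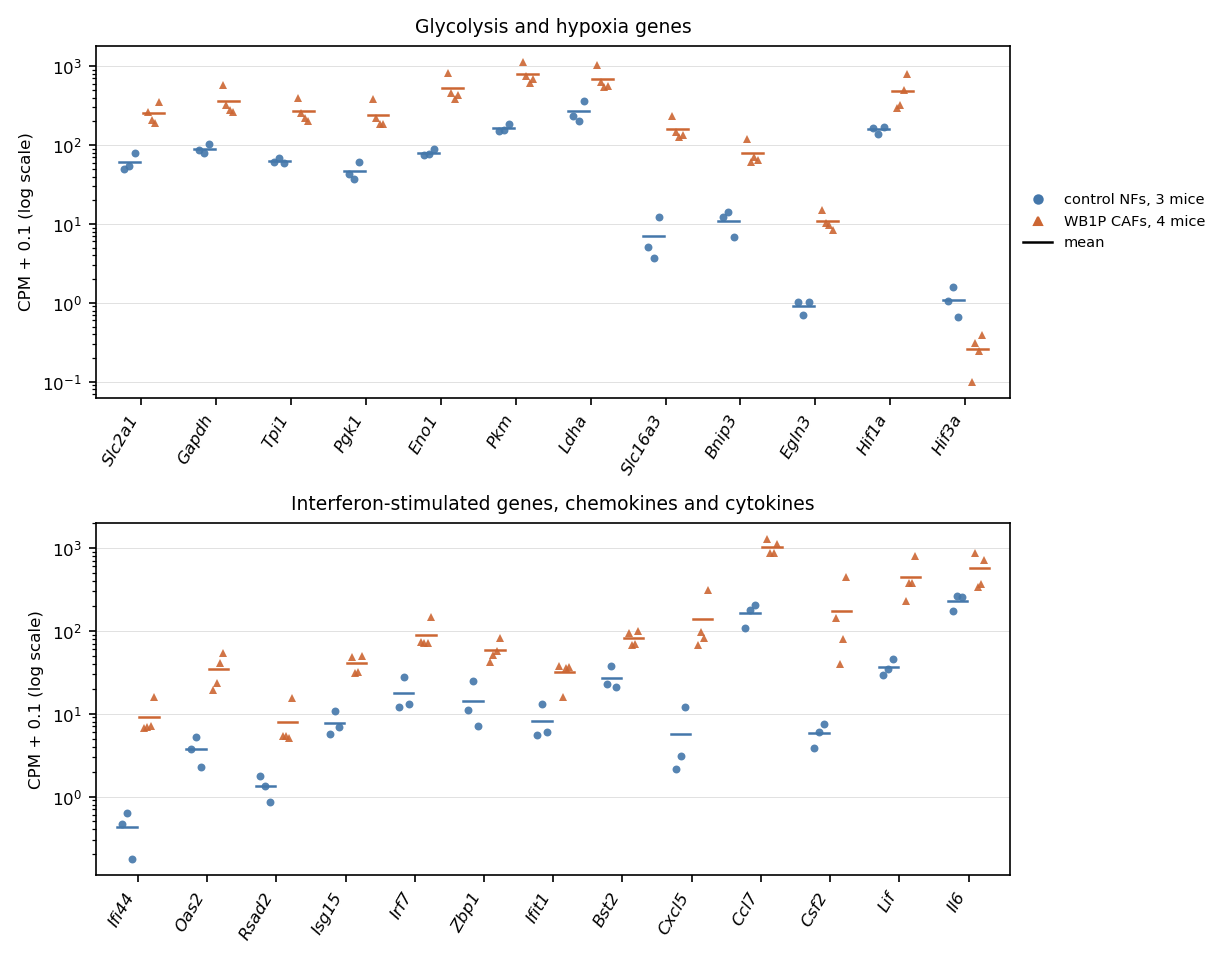
Level of glycolysis and hypoxia genes and of cytokines and chemokines in each mouse, in CPM on a log axis, with 1 point for each of the 3 control and 4 WB1P mice. Slc16a3 lies at 3.62 to 12.2 CPM in controls and 125 to 236 CPM in WB1P mice, and Csf2 at 3.77 to 7.37 CPM and 39.7 to 441 CPM.

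Cell cycle genes rose in a number that depended on the mice and the fit. Of 54, 16 rose (29.6%, against 10.0% of all genes tested) and 3 fell (5.56%, against 9.09%), with a median of 1.48. Without control 44/46 the count that rose was 0, as it was with mice 14 and 35 both left out. It was 4 without mouse 12 and 6 without mouse 14 or in the CD26+ libraries alone. It was 27 with no filter on low counts, 31 with DESeq2's Wald test and 37 when all 6 groups of the series shared a fit. Ccnb2, a mitotic cyclin, was at 4.84, 1.61 and 8.76 CPM in NFs and 40.5, 45.0, 23.9 and 18.6 CPM in CAFs (log2 fold change 2.65, SE 0.56, adjusted p = 0.0131). The mitotic kinesin Kif20a was at 5.15, 0.538 and 7.86 CPM in NFs and 38.4, 48.3, 26.6 and 16.7 CPM in CAFs (log2 2.84, adjusted p = 0.0293). Mki67, the proliferation antigen Ki-67, was at 28.5, 0.968 and 34.6 CPM in NFs and 78.2, 120.4, 87.2 and 47.2 CPM in CAFs and did not pass the threshold (log2 fold change 1.96, SE 0.86, adjusted p = 0.132). Control 49/52 had the lowest level of each of these 3 genes, and among the tumors mouse 14 had the highest and mouse 93 the lowest. In mice 14, 35, 12 and 93 the epithelial marker sum was 251, 161, 114 and 32.5 CPM. Mki67 had this order, whereas Ccnb2 and Kif20a were higher in mouse 12 than in mouse 35. In controls 44/46, 49/52 and 82/83 the sum was 134, 94.8 and 61.0 CPM, while Mki67 was highest in 82/83. The part of epithelial cells in these values was not tested. Cdkn1c, the cyclin-dependent kinase inhibitor p57, fell and was at 51.7 to 155 CPM in NFs and 16.8 to 31.2 CPM in CAFs (log2 -1.91, adjusted p = 0.00905). Ccnd2, a G1 cyclin, fell and was at 122 to 264 CPM in NFs and 68.0 to 87.1 CPM in CAFs (log2 -1.34, adjusted p = 0.00907). Both calls were lost with mice 14 and 35 both left out (adjusted p = 0.0589 and 0.0659).

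Genes of lipid uptake, storage and synthesis were among those that fell. Of 35 adipogenic and lipid handling genes tested, 13 fell and 2 rose (Fabp5 and Apod), with a median of -0.57. Those that fell included Pparg, Lpl, Fabp4, Cd36, Plin2, Plin4, Scd1, Apoe, Hmgcs1, Sqle, Idi1 and Nr1h3. Pparg, the master regulator of fat cells, was at 28.8, 17.7 and 24.7 CPM in NFs and 2.29, 1.05, 2.97 and 1.91 CPM in CAFs (log2 fold change -3.55, SE 0.36, adjusted p = 0.000687). Lpl, lipoprotein lipase, was at 1628, 1368 and 1655 CPM in NFs and 166, 348, 369 and 208 CPM in CAFs (log2 fold change -2.51, SE 0.31, adjusted p = 0.00144). Cd36, a fatty acid transporter, was at 30.1, 31.4 and 26.3 CPM in NFs and 0.176, 3.97, 1.41 and 1.24 CPM in CAFs (log2 -3.96, adjusted p = 0.0027). No tumor reached the lowest control in any of the 3 genes. Scd1, a fatty acid desaturase, was at 248 to 299.5 CPM in NFs and 104 to 147 CPM in CAFs. Apoe was at 139, 665 and 219.9 CPM in NFs and 49.6, 51.4, 65.6 and 51.6 CPM in CAFs (log2 -2.64, adjusted p = 0.00695), with a wide spread among controls. The adipocyte marker sum was at most 8.57 CPM in NFs and 1.76 CPM in CAFs, and its part in these falls was not tested.

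Genes that distinguish normal fibroblast states changed unevenly. Of 35 progenitor and adventitial markers, 6 rose (Ly6a, Ly6c1, Sbsn, Dmkn, Sfrp4 and Mfap5) and 5 fell (Dact2, Ebf2, Creb5, Smpd3 and Limch1), with a median of 0.03. These are 17.1% and 14.3%, against 10.0% and 9.09% of all genes tested. Without control 44/46, 2 rose and 2 fell. The count that fell was 2 without mouse 12, mouse 14 or control 49/52 and 3 without mouse 35. Ly6a, the stem cell antigen Sca-1, was at 288, 476 and 188 CPM in NFs and 1183, 812, 762 and 866 CPM in CAFs (log2 fold change 1.51, SE 0.33, adjusted p = 0.016), with adjusted p = 0.0771 without control 44/46. Smpd3, a sphingomyelinase, was at 326, 369.9 and 123 CPM in NFs and 6.34, 13.6, 33.6 and 20.3 CPM in CAFs (log2 fold change -3.86, SE 0.56, adjusted p = 0.00285). Dact2, a modulator of Wnt signaling, was at 24.9 to 140.0 CPM in NFs and 4.05 to 16.0 CPM in CAFs (log2 -3.08, adjusted p = 0.00844). The 2 genes fell while Pi16 and Cd34, of the same list, kept overlapping groups. Of 20 parenchymal fibroblast markers, 9 fell (Col15a1, Gdf10, Fmo2, Sparcl1, Vit, Lpl, Inmt, Col4a1 and Ntrk2) and 3 rose (Cxcl14, F3 and Steap4). These are 45% and 15%, against 9.09% and 10.0% of all genes tested. The count that fell was 5 without control 44/46, without control 49/52 or in the CD26+ libraries alone. Cxcl14, a chemokine, was at 53.8 to 151 CPM in NFs and 304 to 479.6 CPM in CAFs (log2 2.11, adjusted p = 0.00599).

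Of 33 CAF markers from the literature, 17 rose and none fell (median 1.31). Pdpn, or podoplanin, was at 109, 131 and 117 CPM in NFs and 485, 289, 362 and 647 CPM in CAFs (log2 fold change 1.91, SE 0.29, adjusted p = 0.00369). Runx1, a transcription factor of wound fibroblasts, was at 17.2, 25.8 and 30.1 CPM in NFs and 259.7, 196, 227 and 544 CPM in CAFs (log2 fold change 3.66, SE 0.43, adjusted p = 0.00122). Prg4, or lubricin, was at 17.2, 30.1 and 64.2 CPM in NFs and 705, 1187, 826 and 1258 CPM in CAFs (log2 fold change 4.74, SE 0.51, adjusted p = 0.000925). The groups did not overlap in any of the 3. Emb, an adhesion protein that partners a lactate transporter, was at 25.6 to 37.5 CPM in NFs and 379 to 601 CPM in CAFs (log2 4.07, adjusted p = 9.97e-05). Of 23 contractile genes, 3 rose (Actg2, Cnn1 and Actn1) and 1 fell (Myh11), against 10.0% and 9.09% of all genes, with a median of 0.40. Actn1 lost its call without control 44/46, without mouse 12 and with mice 14 and 35 both left out (adjusted p up to 0.0915). Acta2, the smooth muscle actin that marks myofibroblasts, was at 42.1, 3.98 and 69.5 CPM in NFs and 248, 209, 202 and 130.0 CPM in CAFs and did not pass the threshold (log2 fold change 2.35, SE 0.74, adjusted p = 0.0549), with controls 49/52 and 82/83 far apart. Myh11, a smooth muscle myosin that is also on the pericyte list, was at 3.87 to 7.02 CPM in NFs and 0 to 1.11 CPM in CAFs.

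**Figure D4:**
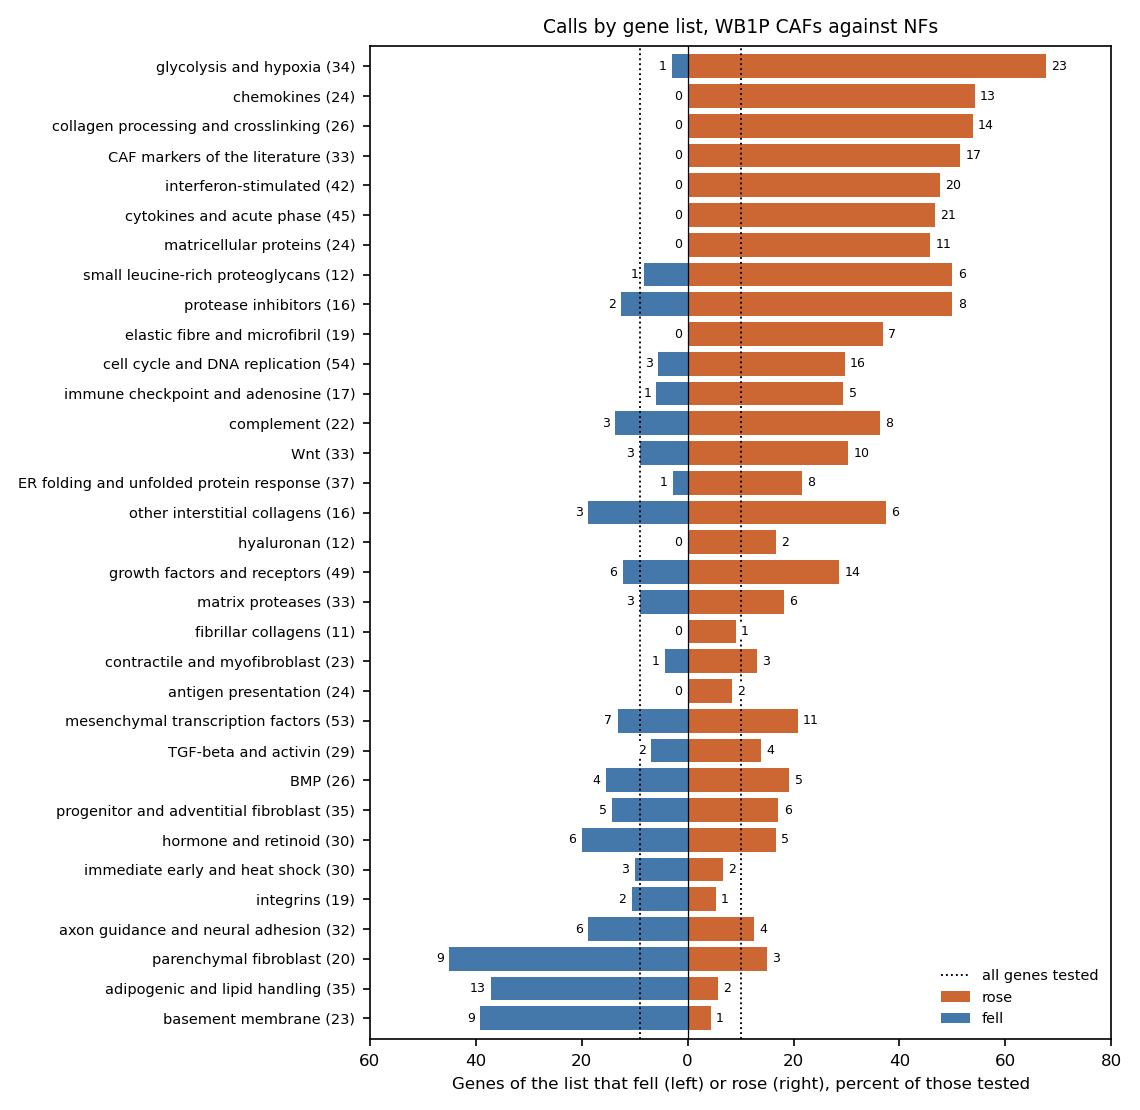
Percentage of the tested members of each of the 33 gene lists that rose or fell in WB1P CD26-positive CAFs, with the number of genes beside each bar and dotted lines at the shares of all genes tested, 10.0% and 9.09%. Glycolysis and hypoxia has 23 rising genes and basement membrane 9 falling genes.

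Of 49 ligands and receptors of growth factor signaling, 14 rose (28.6%, against 10.0% of all genes) and 6 fell (12.2%, against 9.09%), with a median of 0.28. Without control 44/46, 7 rose and 3 fell, without control 49/52, 9 rose, and without mouse 14, 3 fell. The count that fell was 11 with DESeq2's Wald test or when all 6 groups shared a fit. Nrg1, a ligand of ERBB receptors, was at 4.01, 1.29 and 4.72 CPM in NFs and 24.1, 39.2, 33.2 and 40.8 CPM in CAFs (log2 fold change 3.36, SE 0.44, adjusted p = 0.00182). Pdgfa, a ligand of the PDGF receptor, was at 0.919, 0.646 and 2.06 CPM in NFs and 18.7, 5.12, 11.4 and 24.7 CPM in CAFs (log2 3.62, adjusted p = 0.00629). Fgf7 and Fgf10, epithelial growth factors that share a receptor, moved in opposite directions. Fgf7 was at 25.3, 32.9 and 12.4 CPM in NFs and 52.8, 87.2, 73.2 and 93.6 CPM in CAFs (log2 fold change 1.71, SE 0.34, adjusted p = 0.0108). Fgf10 was at 71.3, 76.6 and 45.4 CPM in NFs and 12.9, 9.2, 22.0 and 14.3 CPM in CAFs (log2 fold change -2.14, SE 0.31, adjusted p = 0.00282). Neither gene had overlapping groups. The call of Fgf7 was lost with mice 14 and 35 both left out (adjusted p = 0.0609). Met, the receptor of hepatocyte growth factor, fell and was at 47.4 to 78.4 CPM in NFs and 4.93 to 18.6 CPM in CAFs (log2 -2.45, adjusted p = 0.00354). Egfr fell and was at 601 to 895 CPM in NFs and 217 to 434 CPM in CAFs, and its call ended without control 44/46, without control 82/83 and without mouse 14 (adjusted p 0.0589 to 0.1).

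In the TGF-beta and activin list, 4 of 29 rose (Tgfb3, Inhba, Inhbb and Fstl1) and 2 fell (Gdf10 and Gdf15). These are 13.8% and 6.90%, near the 10.0% and 9.09% of all genes tested. The call of Gdf10 was lost in 5 of 14 alternatives, among them leaving out any one of the controls (adjusted p up to 0.116). Inhba, the subunit of activin A, was at 2.57, 2.33 and 22.9 CPM in NFs and 107, 81.3, 116 and 374 CPM in CAFs (log2 fold change 4.20, SE 0.99, adjusted p = 0.0204), highest in mouse 93. This call was lost without control 44/46 (adjusted p = 0.0705). Fstl1, a secreted follistatin-like protein, was at 2677 to 2893 CPM in NFs and 5442 to 7214 CPM in CAFs (log2 1.21, adjusted p = 0.00954), with adjusted p = 0.0621 without control 44/46. In the BMP list, 5 of 26 rose (Gdf6, Bmpr1b, Grem1, Nbl1 and Bmper) and 4 fell (Bmp5, Bmp7, Id1 and Id4). Those shares are 19.2% and 15.4%, against 10.0% and 9.09% of all genes tested. The count that rose was 2 without control 44/46 or with mice 14 and 35 both left out, and 3 without mouse 14. The secreted BMP antagonist Grem1 was at 0.0306, 0.108 and 0 CPM in NFs and 1.94, 2.72, 6.64 and 1.81 CPM in CAFs (log2 fold change 6.03, SE 0.87, adjusted p = 0.00282). The ligand Bmp7 was at 54.5, 103 and 33.4 CPM in NFs and 2.11, 10.3, 10.2 and 6.39 CPM in CAFs (log2 fold change -3.08, SE 0.51, adjusted p = 0.00515). Grem1 was low even in the tumors.

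In the Wnt list, 10 of 33 rose (Wnt7b, Wnt9a, Wnt16, Sfrp1, Sfrp2, Sfrp4, Dkk2, Nkd2, Notum and Lgr5) and 3 fell (Rspo1, Axin2 and Tcf7l1), with a median of 0.47. Those shares are 30.3% and 9.09%, against 10.0% and 9.09% of all genes tested. The count that rose was 6 without control 44/46 and 5 with mice 14 and 35 both left out. Besides the receptor Lgr5, the members that rose were ligands or inhibitors of the pathway. Wnt9a was at 14.3, 20.9 and 14.8 CPM in NFs and 98.4, 118, 139.6 and 68.0 CPM in CAFs (log2 fold change 2.67, SE 0.29, adjusted p = 0.000925). The antagonist Sfrp1 was at 123, 121 and 148 CPM in NFs and 320.1, 389, 407 and 414 CPM in CAFs (log2 fold change 1.55, SE 0.19, adjusted p = 0.0014). Lgr5, a receptor of R-spondins, was at 0.736 to 2.28 CPM in NFs and 12.8 to 21.8 CPM in CAFs. The ligand Rspo1 was at 2.55 to 9.66 CPM in NFs and 0.558 to 1.41 CPM in CAFs (log2 -2.68, adjusted p = 0.00981). Axin2, a common target of Wnt signaling, was among the 3 that fell.

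Hormone and retinoid genes rose in 5 of 30 (16.7%) and fell in 6 (20%), with a median of -0.38. Of all genes tested, 10.0% rose and 9.09% fell. The count that rose was 3 without control 44/46, without control 49/52 or without mouse 14. All 5 that rose belong to retinoid handling (Aldh1a2, Rbp4, Crabp2, Dhrs3 and Rdh10). The 6 that fell were the steroid, thyroid and retinoid receptors Nr3c1, Nr3c2, Thrb and Rarb, and Tsc22d3 and Per1. Aldh1a2, which makes retinoic acid, was at 0.0613, 0.143 and 0.786 CPM in NFs and 35.2, 27.4, 12.8 and 21.1 CPM in CAFs (log2 fold change 6.21, SE 0.75, adjusted p = 0.00137). Tsc22d3, the glucocorticoid-induced leucine zipper, was at 51.4, 65.8 and 30.7 CPM in NFs and 13.9, 14.8, 13.9 and 15.8 CPM in CAFs (log2 fold change -1.75, SE 0.25, adjusted p = 0.0027). Per1, a clock gene that glucocorticoids also induce, was at 125 to 220.4 CPM in NFs and 34.2 to 58.3 CPM in CAFs (log2 -1.86, adjusted p = 0.00251). Nr3c1, the glucocorticoid receptor, was at 128 to 214 CPM in NFs and 67.1 to 107 CPM in CAFs (log2 -0.997, adjusted p = 0.0209), and lost its call without control 44/46 (adjusted p = 0.093) and without control 49/52 (adjusted p = 0.0701).

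Of 32 axon guidance and neural adhesion genes, 4 rose (Plxna4, Unc5c, Chl1 and Ncam1) and 6 fell (Sema3b, Sema3g, Plxnd1, Robo1, Robo2 and Cntn1). These are 12.5% and 18.75%, against 10.0% and 9.09% of all genes tested. Plxna4, a semaphorin co-receptor, was at 1.2, 1.29 and 1.27 CPM in NFs and 22.9, 45.5, 42.6 and 73.2 CPM in CAFs (log2 fold change 5.20, SE 0.42, adjusted p = 0.000293). Ncam1 was at 9.38, 7.21 and 12.7 CPM in NFs and 105, 98.6, 76.6 and 69.0 CPM in CAFs (log2 3.16, adjusted p = 0.000315). Robo2, a receptor of Slit ligands, was at 6.35 to 30.5 CPM in NFs and 0.352 to 1.74 CPM in CAFs. The adhesion molecule Cntn1 was at 33.1 to 269 CPM in NFs and 0.352 to 17.7 CPM in CAFs (log2 -4.56, adjusted p = 0.0156). The groups did not overlap in any of these 4 genes. The Schwann cell marker sums overlapped, at 23.9 to 61.3 CPM in NFs and 12.2 to 30.5 CPM in CAFs, and their part was not tested.

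Of 53 mesenchymal transcription factors, 11 rose (20.8%) and 7 fell (13.2%), against 10.0% and 9.09% of all genes tested. Without control 44/46, 3 rose and 3 fell. Without control 49/52, 5 rose, and without mouse 12 or mouse 14, 4 fell. Peg3, an imprinted zinc finger factor, was at 289.9, 179 and 215 CPM in NFs and 23.6, 37.8, 41.3 and 35.1 CPM in CAFs (log2 fold change -2.72, SE 0.25, adjusted p = 0.000437). Mkx, a tendon factor, was at 0.108 to 0.374 CPM in NFs and 1.76 to 5.28 CPM in CAFs (log2 3.96, adjusted p = 0.00362). Tcf4, a factor of E-box sites, was at 243 to 452 CPM in NFs and 76.8 to 174 CPM in CAFs (log2 -1.46, adjusted p = 0.0137, and 0.0613 without control 44/46). Among 19 integrin genes, 1 rose (Itgbl1, 5.26%) and 2 fell (10.5%), against 10.0% and 9.09% of all genes tested. Itga8 was at 16.7 to 59.5 CPM in NFs and 0.62 to 2.97 CPM in CAFs (log2 -4.25, adjusted p = 0.00245). Itgb7 was at 37.7 to 116 CPM in NFs and 1.58 to 8.82 CPM in CAFs (log2 -4.02, adjusted p = 0.00228). Of 17 immune checkpoint and adenosine genes, 5 rose (Cd276, Cd80, Arg1, Nos2 and Tnfrsf23) and 1 fell (Entpd1). Those shares are 29.4% and 5.88%, against the same 10.0% and 9.09%. Arg1, which consumes arginine as Nos2 does, was at 0.225 to 0.337 CPM in NFs and 2.19 to 9.71 CPM in CAFs, and was low in every mouse.

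Of 37 genes of endoplasmic reticulum folding, 8 rose (21.6%) and 1 fell (2.70%), against 10.0% and 9.09% of all genes tested. The count that rose depended on single mice. It was 1 without control 44/46, without control 49/52 or with mice 14 and 35 both left out. It was 2 without mouse 14, 4 without mouse 12 and 5 without mouse 35. It was 14 when all 6 groups shared a fit. Pdia5, a disulfide isomerase, was at 23.7 to 49.9 CPM in NFs and 100.1 to 134 CPM in CAFs (log2 1.67, adjusted p = 0.00429). Of 30 immediate early and heat shock genes, whose level can respond to tissue dissociation, 2 rose (Ier3 and Hspb1) and 3 fell (Fosl2, Egr2 and Ier2), with a median of -0.18. Both shares (6.67% and 10.0%) were near those of all genes, and the call of Fosl2 was lost in 4 of 14 alternatives, those without mouse 14, control 44/46, control 49/52 or mice 14 and 35 together (adjusted p up to 0.0765). Ier3 was at 123, 195 and 234 CPM in NFs and 1629.6, 1014, 1018 and 1204 CPM in CAFs (log2 fold change 2.72, SE 0.31, adjusted p = 0.00106). Egr2 was at 156 to 371 CPM in NFs and 40.7 to 97.6 CPM in CAFs (log2 -1.74, adjusted p = 0.0126).

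To ask whether the change differed from that of CD26-negative fibroblasts of the same models, the CD26-negative libraries of 5 WB1P mice and the 3 controls were added, and the difference between both changes was tested over 15 sums. Of 16118 genes tested, the change was higher in CD26-positive fibroblasts for 124 (0.769%) and lower for 184 (1.14%). With the mouse as a block the counts were 511 and 663. Without control 44/46 they were 13 and 35, without control 49/52 54 and 136, and without control 82/83 40 and 79. Without mouse 12 they were 77 and 128, without mouse 14 46 and 96, and without mouse 35 57 and 121.

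Among the 8 largest differences in the higher direction, Aass, an enzyme of lysine breakdown, had 3.85 (SE 0.60, adjusted p = 0.00525). Its CPM on the scale of this fit was 14.8 to 26.2 in CD26-positive CAFs, 0.310 to 1.60 in CD26-negative CAFs, 1.27 to 2.16 in CD26-positive NFs and 0.711 to 1.65 in CD26-negative NFs. Tll2, a procollagen proteinase of the tolloid family, differed by 6.11 (SE 1.40, adjusted p = 0.0392), with 1.07 to 28.1 CPM in CD26-positive CAFs and at most 0.799 CPM in the other 3 groups. These genes were at their highest in CD26-positive CAFs. For Aqp1, Aldh1a1 and Il16 the difference came instead with a fall in CD26-negative cells. Aqp1, a water channel, changed by 0.65 in CD26-positive and -4.07 in CD26-negative fibroblasts (difference 4.73, adjusted p = 0.00525). Aldh1a1, a retinaldehyde dehydrogenase, changed by -0.05 and -4.58 (difference 4.53, adjusted p = 0.0133). Wnt16 changed by 2.13 and -2.68, and Cyp2f2, a cytochrome P450, by 2.59 and -2.29. Wfikkn2, a protease inhibitor that binds myostatin, differed by 3.52 and Il16, a lymphocyte attractant, by 3.37.

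Among the largest in the lower direction, Rgs5, a regulator of G protein signaling and a pericyte marker, changed by -1.13 in CD26-positive and 5.22 in CD26-negative fibroblasts (difference -6.35, SE 0.70, adjusted p = 0.000602). It was at 570 to 2281 CPM in CD26-negative CAFs, 15.1 to 37.8 in CD26-negative NFs, 1.56 to 3.55 in CD26-positive CAFs and 4.33 to 7.61 in CD26-positive NFs. Flt1, the VEGF receptor, was at 101 to 299 CPM in CD26-negative CAFs and at most 9.76 CPM in the other groups (difference -5.95, adjusted p = 0.000252). These genes were high in CD26-negative CAFs alone. Adamts16, a metalloproteinase, was at 83.2 to 165 CPM in CD26-negative CAFs and 29.4 to 79.7 CPM in CD26-positive CAFs, with 11 counts in all CD26-negative NFs and 17.1 to 77.0 CPM in CD26-positive NFs (difference -9.9997, adjusted p = 0.000114). Spock3, a matrix proteoglycan, had 4 counts in CD26-negative NFs (difference -10.86), so its fitted value rests on few reads. Reln, the secreted protein reelin, changed by -3.35 in CD26-positive and 3.51 in CD26-negative fibroblasts (difference -6.86). Lgi1 changed by -1.65 and 4.21 (difference -5.85), and Pkd1l2 by -4.73 and 0.85. In the edgeR fit of all 15 sums, Pkd1l2, Reln, Lgi1, Spock3 and Flt1 fell in CD26-positive fibroblasts (adjusted p = 0.000465, 0.0368, 0.0403, 0.0122 and 0.0187). Without control 44/46, 6 of the 15 named differences held, without control 49/52, 8 held, and without mouse 14, 9 held.

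The summed pericyte markers were at 2115 to 6038 CPM in CD26-negative CAFs and 264 to 544 CPM in CD26-negative NFs, against 334 to 531 CPM and 193 to 218 CPM in the CD26-positive groups. Of the pericyte markers 5 differed in the lower direction. Endothelial markers summed to 155 to 411 CPM and 77.2 to 110 CPM in CD26-negative CAFs and NFs, and 4 of them differed in that direction. The part of pericytes and endothelial cells in these differences was not tested. Among the gene lists, 4 of 24 contractile and 4 of 20 integrin genes differed in the lower direction, and of 20 parenchymal fibroblast genes 3 differed in the higher and 1 in the lower direction, against 0.769% and 1.14% of all genes. Of 30 chemokines 2 differed in the higher direction. In the lower direction 1 of 34 glycolysis and hypoxia genes and 1 of 42 interferon-stimulated genes differed.

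**Figure D5:**
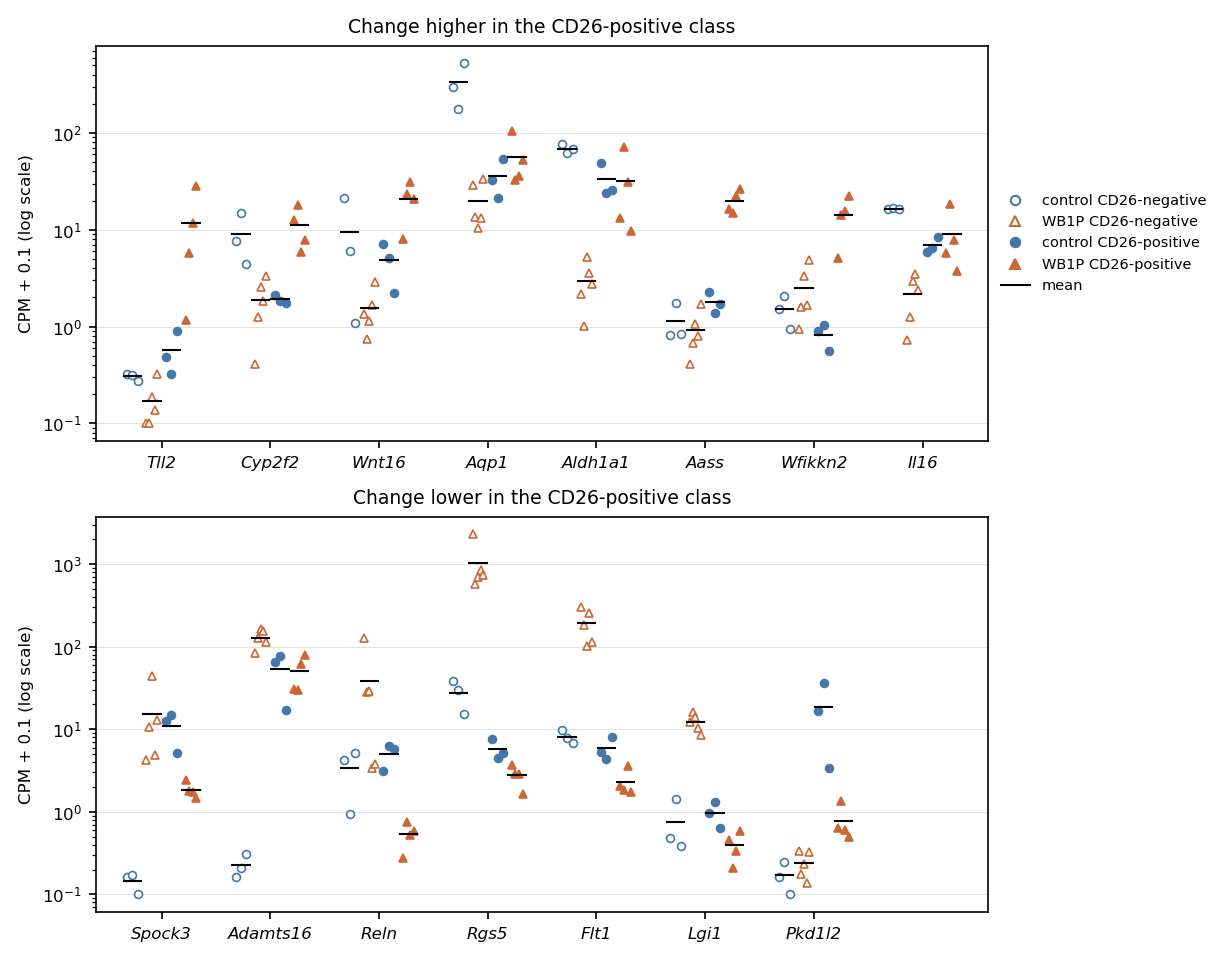
Level of 15 genes with the largest difference in change between CD26-positive and CD26-negative fibroblasts, in CPM on a log axis, with 1 point per mouse in each of the 4 groups. Rgs5 reaches 2281 CPM in CD26-negative CAFs and stays at 1.56 to 3.55 CPM in CD26-positive CAFs.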

How the data were processed

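Sorted fibroblasts were profiled by stranded poly(A) RNA-seq with paired-end reads. The authors aligned reads with HISAT2 (version 2.2.1) to GRCm38, per the labels' processing notes, and deposited a table of raw counts per gene, not normalized, with 55487 lines. The counter, its strand setting and its annotation are not given in the sources used here. The 1 line without a gene name held 0 counts and was left out. Gene names and coordinates came from the deposited table and were compared with GENCODE M21 (55140 IDs matched, 54820 with GRCm38 coordinates).

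Counts were summed per mouse over CD26-positive libraries. No pair of libraries of the same model and gate, which came from different mice, differed by as little as sampling noise (15 pairs, chi-square per degree of freedom 14.8 to 127). Both gates of a mouse were not compared in this way. Genes passing edgeR's filterByExpr were tested with edgeR (4.0.16, R 4.3.3, TMM, quasi-likelihood, Benjamini-Hochberg). CPM used TMM-scaled library sizes. Depth was 5790599 to 29498005 counts per mouse. DESeq2 (1.42.0) was an alternative, as were its size factors, no filter, a fit of all 6 groups, each gate alone and leaving out each mouse. The study's methods state the limits of 0.05 and 2 used for differential expression. The difference by CD26 class was fitted as an interaction over 15 sums. The labels give both classes of a mouse the same number, and their deviations from the group means correlated in all 7 pairs (r from 0.24 to 0.677, median 0.543), so a fit with the mouse as a block was made too.

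Genes named by rule were Dpp4 and En1, the 12 largest rises and falls among differentially expressed genes with non-overlapping groups and at least 10 CPM on average in the higher group, and the 8 largest differences by class in each direction. Other genes are members of 33 gene lists and 8 lists of markers of other cells, named for their role, change or level after their values were seen. Values of a few genes, of which 1 was named by rule, are not reported here. The members and lists were chosen with earlier results of these data known, and lists were given no test. In simulated counts of 14531 genes for the 7 mice, 82 of 100 genes with a log2 change of 2 and 10 of 100 with a change of 1 were recovered, with 1 false call. For the interaction, on 15767 genes, 65 and 8 of 100 were recovered, with 4 false calls.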

Additional observations from a re-analysis of the deposited data

Results flagged for a closer look

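In 190 groups of 4 WB1P values, 1 for each gene named, a mouse was marked by Dixon's critical value at the 95% level. It was marked where its gap to the nearest other mouse took more of the group's range than this value. Normally distributed values pass it in about 1 in 20 groups. CPM need not be normal, and Myh4 had 3 counts in all CAFs, so this rate may not hold here. The marked values number 22. Mouse 93 was the high mouse for En1 (64.3 CPM), Gm6093 (20.2 CPM), Serpinb2 (605 CPM), Cxcl5 (315 CPM), Csf3 (86.3 CPM), Il33 (1255 CPM), Ifi44 (15.7 CPM), Irf7 (145 CPM), Rsad2 (15.2 CPM) and Inhba (374 CPM). Mouse 12 was the high mouse for the glycolysis and hypoxia genes Eno1 (824 CPM), Pgk1 (380.4 CPM), Ldha (1022 CPM) and Bnip3 (119 CPM) and for Myh4 (0.352 CPM), and the low mouse for Gdf10 (13.027 CPM). Mouse 35 was the high mouse for Col13a1 (1.41 CPM), Nos1 (0.704 CPM), Sema3g (1.89 CPM) and Apoe (65.6 CPM). Mouse 14 was the low mouse for Col18a1 (147 CPM) and Ifit1 (15.6 CPM). Mouse 12 had a double-positive library alone and the lowest depth, and the part of the gate and the depth in its values was not tested.

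The change between tumors and controls differed between CD26-positive and CD26-negative fibroblasts, by the interaction test of the edgeR fit, for 15 named genes. The log2 difference was 6.11 for Tll2, 4.89 for Cyp2f2, 4.82 for Wnt16, 4.73 for Aqp1, 4.53 for Aldh1a1, 3.85 for Aass, 3.52 for Wfikkn2 and 3.37 for Il16. It was -10.86 for Spock3, -9.9997 for Adamts16, -6.86 for Reln, -6.35 for Rgs5, -5.95 for Flt1, -5.85 for Lgi1 and -5.57 for Pkd1l2.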

How the results depend on the processing

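Counts of calls depended on the mice and the fit more than on the scaling. With all 6 groups of the series in the fit, 2895 genes rose and 2671 fell, against 1488 and 1346. DESeq2's Wald test gave 2076 that fell, and CD26+ libraries alone 245 differentially expressed lower genes, against 403. Leaving out 1 mouse at a time gave 555 to 1803 that rose, 451 to 1725 that fell, 387 to 606 differentially expressed higher genes, 260.0 to 467 lower genes and 186 to 348 listed genes that rose or fell (341 with all mice). With WB1P mice 14 and 35 both left out, an alternative chosen after their epithelial marker sums were seen, 652 rose, 551 fell and 219 listed genes were called. For the difference by CD26 class, the fit with the mouse as a replicate block gave 511 higher and 663 lower genes, against 124 and 184, and the Wald test 310.0 and 481. Leaving out 1 mouse gave 13 to 137 and 35 to 202. Each lowest count was without control 44/46 and each highest without WB1P mouse 93. The cause of these shifts was not tested.

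Of 163 named genes that rose or fell, 111 kept the call in each of the alternatives that could be fitted, at most 14 a gene, 34 lost it in 1 to 3 and 18 in 4 or more. The named differences by class that kept the call numbered 6 to 14 of 15 when 1 mouse was left out. The log2 difference of Dpp4, which did not pass the threshold, was -0.63 without control 82/83 and 0.13 without control 49/52, against -0.32. Under DESeq2's size factors the median change of all genes was below 0 by under 0.01. Controls of 3 mice and counts of under 10 CPM limit the precision of small changes and of rare transcripts.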
